A study of Mus musculus with 33 samples.

Results

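The primitive streak is the furrow in the early embryo through which cells leave the epiblast to become mesoderm and endoderm, and 10 genes that mark it or the mesendoderm it forms were followed here: *T*, *Eomes*, *Mixl1*, *Gsc*, *Mesp1*, *Mesp2*, *Evx1*, *Lhx1*, *Tbx6* and *Msgn1*. They were listed by name, by no rule on a measured value but with earlier results of these data known, and all 10 were found once among the 22367 protein-coding genes of the mouse annotation GENCODE vM1 on mm9. The study compared, by ChIP-seq (sequencing of DNA recovered with an antibody), E14 mouse embryonic stem cells (mESC) and their embryoid bodies (EBs), which are differentiating aggregates made here by hanging drop in serum medium and taken at weeks 1, 2 and 3, in wild type (WT) cells and in cells with a Uhrf1 knockout (KO). Uhrf1 is the protein that recognises hemimethylated CpG after replication and brings the methyltransferase Dnmt1 to it. Of 33 samples, 25 had a list of enriched regions, and each combination of genotype, stage and target was 1 library, so that there was no replicate spread to compare a difference with and no test was possible. The lists comprised 18 of histone domains (H3K4me3 and H3K27me3 at all 4 stages, H3K9me3 in mESC), 6 of mESC summits of the factors Nanog, Oct4 and Sox2, and 1 of Uhrf1 windows in WT mESC. The KO cells were a single line, kept like the WT cells in LIF medium on gelatin or on fibroblast feeders, and the Uhrf1 antibody was used only in WT, so the lists hold no check of the knockout itself.

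Streak formation is driven by Nodal, Wnt and Bmp signals that switch on T-box, homeodomain and bHLH transcription factors in epiblast cells. In stem cells most such genes are silent and carry H3K4me3, left by Set1 and MLL methyltransferases at active or poised starts, together with H3K27me3, left by Polycomb; a start with both is called bivalent. A gene start was called active here when a H3K4me3 domain touched the 2 kb on either side of it and no H3K27me3 domain touched the 5 kb on either side, repressive in the opposite case, bivalent with both and no mark with neither.

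The lists give regions without read totals, and depth was not set beside a value here. Mean read counts of domains are per bin, the bin length was set per list (350 to 1800 bp), and a domain is therefore given below by the percentile of its mean count within its own list. The H3K27me3 list of KO mESC was the shortest of the histone lists, with 722 domains against 8161 in WT. At those of the 10 genes with a domain it held 0.731 to 1.24 reads per kb of bin, under the 1.69 of the weakest domain of the WT list. Whether the counts had been scaled to depth is not known here. Of 9 stem cell marker genes found in the annotation, 8 had H3K4me3 in mESC of each genotype, and so had 4 of 8 fibroblast markers. The shares over all coding genes were 63.2% in WT and 57.0% in KO. The stem cell markers also had it at 7 of 9 in WT week 3 and 8 of 9 in KO week 3, so these counts cannot check the stage labels. The part that feeder cells had in any value was not tested.

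The starts of the 10 genes differ in sequence, which is shown because CpG is the dinucleotide that Uhrf1 reads and because CpG density of promoters is known to go with H3K4me3. RefSeq promoters (GRCm38.p6, 250 bases before to 50 after the start) were held for 9 of the genes, *Mixl1* being the exception, and all 9 were found unchanged in the mm9 assembly. The RefSeq start lay -113 bp (*Lhx1*), -23 bp (*Eomes*), 91 bp (*Gsc*) and 198 bp (*Mesp1*) from the GENCODE start used for the marks, negative being upstream. At the other genes both starts were the same. The 250 bases before the RefSeq start of 4 of the 9 genes follow on the gene's strand, with CpG in capitals. *Lhx1* (chr11:84339037-84339286, minus strand) and *Eomes* (chr9:118387057-118387306, plus strand) were bivalent in all lists, *Tbx6* (chr7:133924747-133924996, plus strand) was active in all, and *Msgn1* (chr12:11215755-11216004, minus strand) had neither mark in any.
Lhx1: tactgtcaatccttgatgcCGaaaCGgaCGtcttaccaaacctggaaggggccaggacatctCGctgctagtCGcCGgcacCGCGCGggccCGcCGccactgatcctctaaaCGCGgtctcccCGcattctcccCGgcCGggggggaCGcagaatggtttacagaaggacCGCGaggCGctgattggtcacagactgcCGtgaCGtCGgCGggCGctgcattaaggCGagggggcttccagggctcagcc
Eomes: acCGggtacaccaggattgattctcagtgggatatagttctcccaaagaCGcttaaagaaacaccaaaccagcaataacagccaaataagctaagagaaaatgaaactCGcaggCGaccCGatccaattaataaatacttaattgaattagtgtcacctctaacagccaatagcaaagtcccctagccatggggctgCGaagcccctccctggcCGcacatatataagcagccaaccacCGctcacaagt
Tbx6: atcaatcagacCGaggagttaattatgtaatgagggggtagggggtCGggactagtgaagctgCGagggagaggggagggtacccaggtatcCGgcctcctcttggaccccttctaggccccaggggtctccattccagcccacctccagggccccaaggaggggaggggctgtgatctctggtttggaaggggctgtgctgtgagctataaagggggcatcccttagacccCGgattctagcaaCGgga
Msgn1: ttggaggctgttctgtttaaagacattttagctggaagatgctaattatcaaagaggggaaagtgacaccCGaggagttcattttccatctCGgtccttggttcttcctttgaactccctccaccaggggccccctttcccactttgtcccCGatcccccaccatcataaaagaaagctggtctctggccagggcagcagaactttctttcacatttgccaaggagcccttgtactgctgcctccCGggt
Over the whole 300 bases *Lhx1* held 31 CpG, *Gsc* 25, *T* 17, *Evx1* 12, *Eomes* and *Mesp2* 10 each, *Tbx6* 7, and *Mesp1* and *Msgn1* 4 each, against a median of 7 over 32851 promoters. The order only partly followed the marks: *Mesp2* with 10 CpG had H3K4me3 in none of 8 lists and *Tbx6* with 7 had it in all 8. Of the motifs searched on both strands, the octamer ATGCAAAT was found only in the *Evx1* promoter, beginning 126 bases before the start (1.74% of all promoters hold it). The Tcf/Lef letters CTTTGAT were found at *Mesp1* and *Msgn1* (3.73% of all) and the T-box letters TCACACCT at *Mesp1* (1.28%). The Sox letters CTTTGTT (5.85%), the short composite TTGTNATGC (0.731%) and the Smad box GTCTAGAC (0.213%) were in none of the 9. A match describes letters in this window and is not a bound site.

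In WT mESC, 7 of the 10 genes were bivalent (*T*, *Eomes*, *Mixl1*, *Gsc*, *Mesp1*, *Evx1* and *Lhx1*), against 18.3% of all coding genes. *Tbx6* was active, *Mesp2* repressive and *Msgn1* unmarked. In KO mESC 3 were bivalent, *Eomes*, *Evx1* and *Lhx1*, against 4.29% of all genes. *T*, *Mixl1* and *Gsc* were active there and *Mesp1* repressive. Among all genes bivalent in WT mESC, 14.6% were bivalent and 60.5% active in KO, and of the 7 streak genes 3 were in each of these classes. In EBs the bivalent genes numbered 6 in WT and 2 in KO at week 1 (15.2% and 10.7% of all genes), 4 and 3 at week 2 (13.7% and 13.4%) and 5 and 5 at week 3 (19.6% and 11.3%). Of those bivalent in WT, 2 of 6 were bivalent in KO at week 1 (50.9% among all genes bivalent in WT), 3 of 4 at week 2 (54.5%) and 4 of 5 at week 3 (46.7%).

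**Figure D1:**
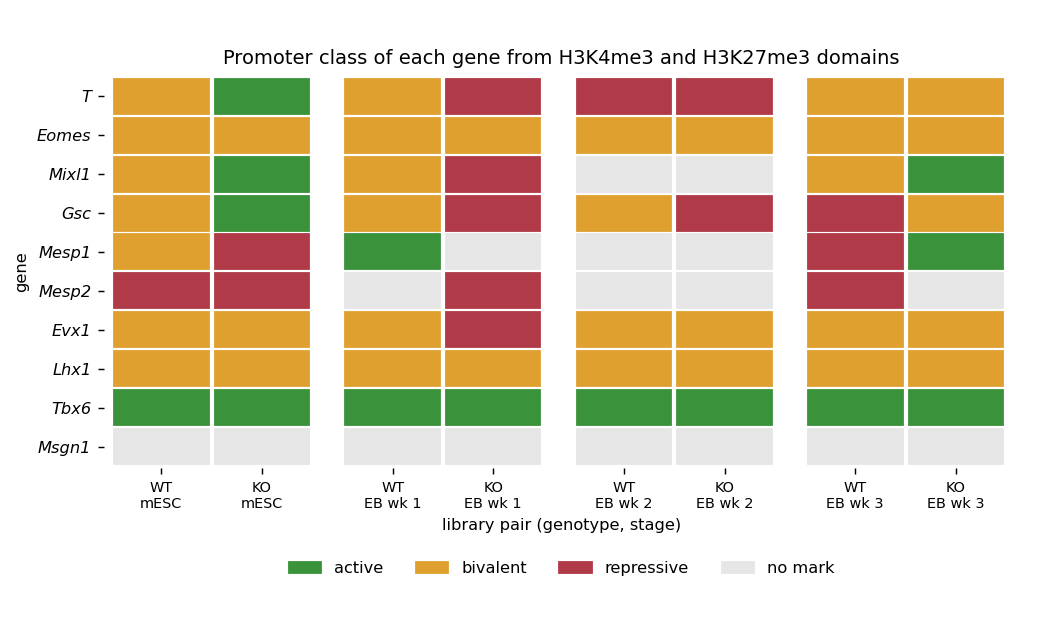
Promoter class of each gene (rows) in the WT and Uhrf1 KO libraries of the 4 stages (columns), 1 library per cell. *Eomes*, *Lhx1*, *Tbx6* and *Msgn1* had the same class in all 8 columns, whereas *Gsc* differed between WT and KO at all 4 stages.

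The genes thus fell into a constant and a variable set. *Eomes* and *Lhx1* were bivalent, *Tbx6* active and *Msgn1* unmarked in every library of both genotypes. *Gsc* differed between WT and KO at 4 stages, *Mixl1* and *Mesp1* at 3, *T* and *Mesp2* at 2 and *Evx1* at 1. Such a count depends on calls near the callers' thresholds, and the strength of each domain is therefore given gene by gene.

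Among the T-box factors, *T* (Brachyury; ENSMUSG00000062327.3, chr17:8627288-8635361, plus strand), which drives mesoderm formation and notochord, had a H3K4me3 domain over its start in both mESC libraries. It was 9.1 kb long at the 24.3rd percentile of the WT list and 10.4 kb at the 64.2nd percentile of the KO list. At week 1 a 2.8 kb WT domain at the 4.48th percentile covered 67.8% of the 4 kb window, and in KO the nearest domain lay 61.4 kb away. At week 2 neither genotype had one, the nearest being 24.9 kb away in WT and 61.4 kb in KO. At week 3 the WT domain was 0.8 kb long and ended 0.888 kb before the start, while the KO domain was 7.6 kb long and covered the whole window at the 3.36th percentile. H3K27me3 covered the window in 7 of 8 lists, KO mESC being the exception with the nearest domain 1063 kb away. The *T* domains of H3K27me3 were long, from 57.8 kb in WT week 1 to 869.4 kb in KO week 2, where the domain took in 4 gene starts.

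*Eomes* (ENSMUSG00000032446.8, chr9:118387330-118395250, plus strand), the T-box factor needed early in the streak for endoderm and for the exit of mesoderm, was the T-box gene whose both marks were in all 8 lists. Its H3K4me3 domain covered the whole window in 7 of them. The exception was KO week 1, in which a 1.4 kb domain, 4 bins long, covered 35.0% of the window against 8 kb and the whole window in WT; its mean count stood at the 79.7th percentile of its list, against the 52.4th in WT. In mESC its domains were 28.6 kb (WT) and 46.8 kb (KO), at the 50.5th and 39.2nd percentiles. Its H3K27me3 domains ran from 259.2 kb (WT) and 298.5 kb (KO) in mESC to 26.3 kb (WT) and 23.4 kb (KO) at week 1, and 126 kb and 273.6 kb at week 3.

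*Tbx6* (ENSMUSG00000030699.10, chr7:133924997-133929074, plus strand), which commits streak descendants to paraxial mesoderm, had H3K4me3 in all 8 lists and H3K27me3 in none. It lies among close neighbours, with *Ypel3* starting 4.53 kb away and 7 other coding starts within 50 kb. The mESC domains over it were 127.4 kb (WT) and 156 kb (KO) and held 12 and 13 gene starts. In EBs the domains were 7.7 to 47.2 kb long and in KO week 1 the domain ended 0.297 kb before the *Tbx6* start, so that its H3K4me3 cannot be told apart from that of its neighbours. The nearest H3K27me3 domain lay 41.0 kb (KO mESC) to 567 kb (KO week 3) away.

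The homeodomain factors shared bivalency in WT mESC and differed in what followed. *Mixl1* (ENSMUSG00000026497.7, chr1:182623174-182627165, minus strand), expressed across the streak, had H3K4me3 in WT at mESC (9.1 kb, 19.0th percentile), week 1 (2.4 kb, 18.9th) and week 3 (5.6 kb, 0.435th), and in KO at mESC (15.6 kb, 5.97th) and week 3. The last was 1 bin of 0.4 kb. At week 1 the nearest KO domain was 5.99 kb away, and at week 2 the nearest domain was about as far in both genotypes, 6.04 kb in WT and 5.99 kb in KO. H3K27me3 was present in WT mESC (16.2 kb), in week 1 of both genotypes (10.5 kb in WT, 9 kb in KO) and in WT week 3 (30.6 kb).

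*Gsc* (goosecoid; ENSMUSG00000021095.3, chr12:105709419-105711537, minus strand), which marks the anterior streak and prechordal plate, shared its H3K4me3 domain in both mESC lists and WT week 1 with *Gm10000*, which starts 1.16 kb away. WT had domains in mESC (9.1 kb, 20.4th percentile), week 1 (7.2 kb, 2.81st) and week 2 (4.8 kb, 1.32nd) and none at week 3. The week 2 domain ended 0.464 kb before the *Gsc* start and lay over that of *Gm10000*, so the bivalent call of *Gsc* in WT week 2 and its absence in KO rest on a domain at the neighbour's start. KO had a 13 kb domain in mESC (14.3rd percentile), none at weeks 1 and 2 and a 1.6 kb domain at week 3 that ended 1.66 kb before the start and covered 8.42% of the window. H3K27me3 was called in 7 of 8 lists. In KO mESC, the list without it, the nearest domain was 3826 kb away, whereas the WT mESC domain was 66.6 kb long at the 94.2nd percentile.

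*Evx1* (ENSMUSG00000005503.8, chr6:52263492-52268372, plus strand), a factor of the posterior streak beside the HoxA cluster, had H3K27me3 in all 8 lists in domains of 201.6 to 948 kb that held 14 or 15 gene starts, *Hox* genes included. These were among the strongest of their lists, at the 98.7th percentile in WT mESC and the 99.5th in WT week 1. In KO mESC the domain stood at the 66.8th. H3K4me3 was missing only in KO week 1, with the nearest domain 6.74 kb away, whereas the WT week 1 domain was 10.8 kb long at the 19.5th percentile. The other 6 H3K4me3 domains were 4.8 to 7.8 kb long, from the 2.3rd (WT mESC) to the 52.3rd percentile (KO mESC).

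*Lhx1* (Lim1; ENSMUSG00000018698.7, chr11:84331479-84338923, minus strand), a LIM homeodomain factor of anterior mesendoderm and later of kidney, was bivalent throughout. H3K4me3 covered its whole window in all 8 lists in domains of 8 to 30 kb, the strongest being WT week 1 (21.2 kb, 67.5th percentile) and the KO week 1 domain being 8.05 kb at the 36.8th. Its H3K27me3 domains were 43.8 to 312 kb long and stood at the 75.3rd to 95.8th percentile of their lists.

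The bHLH factors carried the fewest marks. *Mesp1* (ENSMUSG00000030544.5, chr7:86937127-86938674, minus strand), the factor of cardiac mesoderm, had H3K4me3 in 3 lists: WT mESC, where a 9.1 kb domain began 1.17 kb past the start at the 3.7th percentile, WT week 1 (5.2 kb over the start, 1.12th percentile) and KO week 3 (1.6 kb, ending 0.127 kb before the start). *Mesp2* (ENSMUSG00000030543.8, chr7:86955613-86958317, plus strand), which patterns somites, starts 16.9 kb from *Mesp1* and had H3K4me3 in none. One H3K27me3 domain spanned both genes in WT mESC (36 kb), KO mESC (462 kb) and WT week 3 (43.2 kb), and a 12.6 kb domain lay on *Mesp2* alone in KO week 1. *Msgn1* (mesogenin; ENSMUSG00000047002.1, chr12:11215188-11215754, minus strand), the master factor of presomitic mesoderm, had no domain of either mark, the nearest H3K4me3 domain being 4.15 kb (WT weeks 2 and 3, KO week 3) to 52.6 kb (mESC) away.

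**Figure D2:**
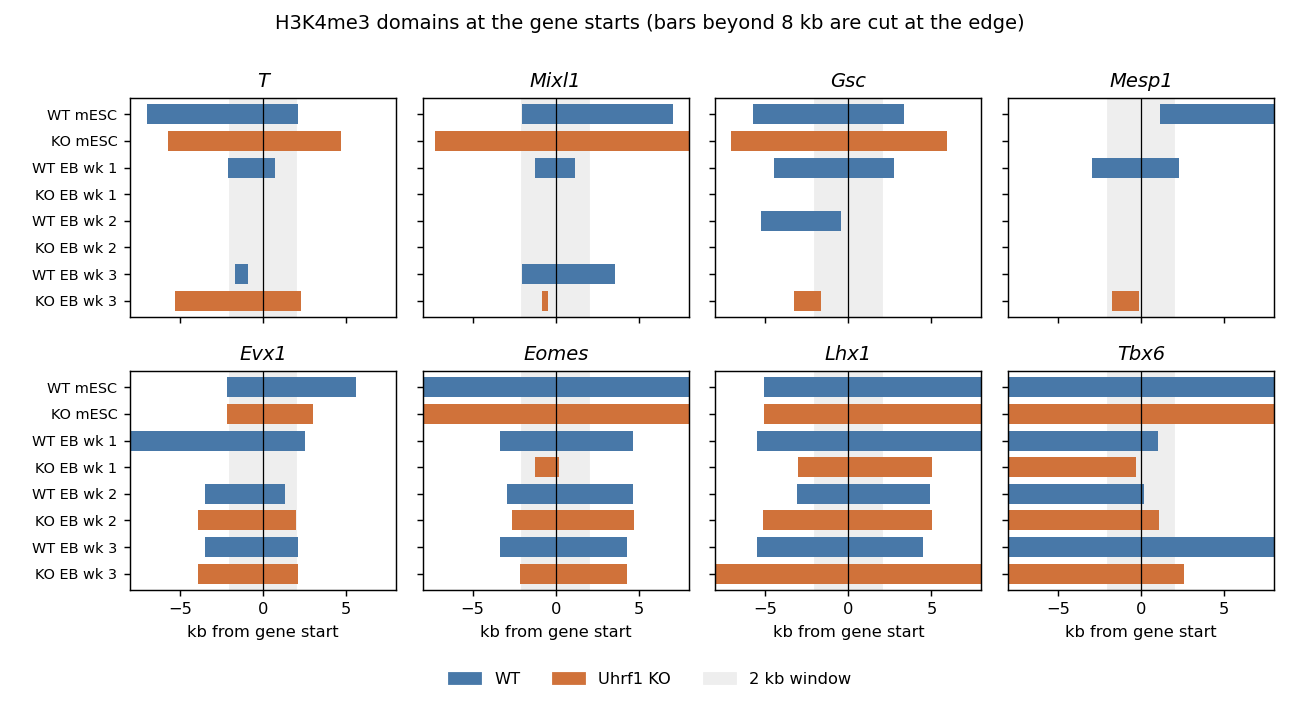
H3K4me3 domains (bars) in WT and Uhrf1 KO at the 4 stages for the 8 genes that had any, in kb from the gene start along the gene, with the 2 kb window on either side shaded. At week 1 *T*, *Mixl1*, *Gsc*, *Mesp1* and *Evx1* have a WT bar and no KO bar, and the KO bar of *Eomes* is 1.4 kb long against 8 kb in WT.

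Counted over libraries, H3K4me3 was found at 8 of the 10 genes in WT mESC and 7 in KO (63.2% and 57.0% of all coding genes), and at week 1 at 8 in WT and 3 in KO (62.1% and 57.0%). At week 2 it was found at 5 and 4 (65.7% and 64.5%) and at week 3 at 6 and 8 (66.2% and 65.8%). The genes kept the mark from WT to KO in 7 of 8 cases in mESC, 3 of 8 at week 1, 4 of 5 at week 2 and 6 of 6 at week 3, and over all genes with H3K4me3 in WT the kept shares were 88.0%, 90.0%, 94.7% and 96.3%. Week 1 was thus the stage with the widest gap between the streak genes and the rest. Among all genes bivalent in WT at week 1, 75.0% had H3K4me3 in KO, and of the 6 streak genes in that class 2 had it.

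The 7 WT domains of the streak genes without a KO counterpart were weak ones by mean count. They stood at the 3.7th percentile of their list in mESC (*Mesp1*), at the 1.12th to 19.5th at week 1 (*Mesp1*, *Gsc*, *T*, *Mixl1* and *Evx1*) and at the 1.32nd at week 2 (*Gsc*), whereas the 3 kept at week 1 stood at the 47.0th (*Tbx6*), 52.4th (*Eomes*) and 67.5th (*Lhx1*). The deposited score, which grows with domain length, gave another order at week 1, where 6 of the 8 WT genes had a domain above the median score. *Evx1*, without a KO domain, scored 24.37, above the kept *Tbx6* (23.86) and *Eomes* (19.51) and below *Lhx1* (52.16). The other genes without one scored 17.3 (*Gsc*), 11.52 (*Mesp1*), 5.933 (*T*) and 5.42 (*Mixl1*). Domains of low mean count were kept less at all genes too. Of genes whose WT domain ranked at or below the 20th percentile, 47.3% had H3K4me3 in KO at week 1 and 57.7% in mESC, and of the streak genes of that kind 0 of 5 and 2 of 3 had it. At week 3 both streak genes of that kind, *Evx1* and *Mixl1*, kept it, against 75.3% of all genes of that kind. The 20th percentile was chosen after the values were seen.

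**Figure D3:**
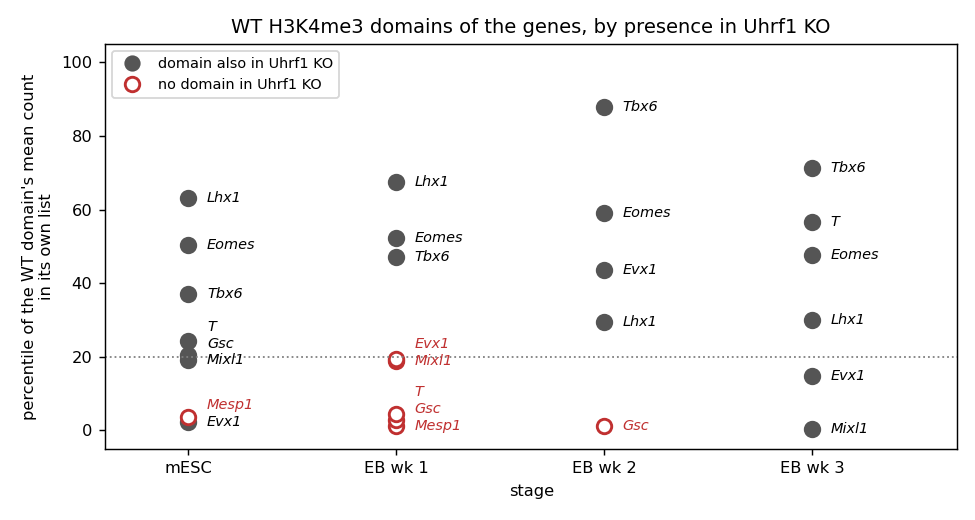
Percentile of the mean count of each WT H3K4me3 domain within its own list (vertical axis) at the 4 stages (horizontal axis), 1 point per gene, filled where Uhrf1 KO also had a domain and open where it had none; the dotted line marks the 20th percentile. All 7 open points lie below the line, 5 of them at week 1.

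Genes of the same pathway were read in 4 lists of 53 genes, of which 47 had H3K4me3 in WT week 1 and 38 of these in KO. The secreted ligands and antagonists kept it at 3 of 9 genes (*Bmp4*, *Dkk1* and *Wnt5b*), the receptors and co-receptors at 7 of 9, the signal transducers at 10 of 10 and the genes downstream of the streak at 18 of 19. The 6 ligand genes without it in KO were *Nodal*, the inducer of mesendoderm, its antagonists *Lefty1* and *Lefty2*, the Wnt ligands *Wnt3* and *Wnt8a*, and *Fgf8*. They were joined by the Nodal co-receptor *Tdgf1*, by *Fgfr1* and by the somite gene *Ripply2*. The WT domains of these 9 genes ran from weak to strong: *Ripply2* stood at the 2.73rd percentile, *Wnt8a* at the 4.39th, *Lefty2* at the 16.6th, *Nodal* at the 27.8th, *Fgf8* at the 28.3rd, *Tdgf1* at the 48th, *Wnt3* at the 49.2nd, *Lefty1* at the 52.2nd and *Fgfr1* at the 71.2nd. These genes were named after their values were seen. At week 2 the ligands kept H3K4me3 at 11 of 11 genes and at week 3 at 11 of 11.

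**Figure D4:**
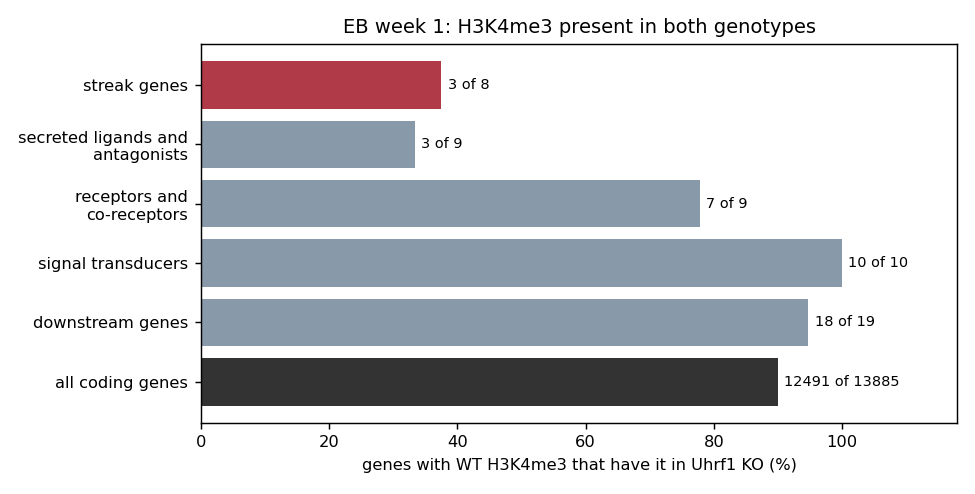
Share of genes with WT H3K4me3 at week 1 that also had it in Uhrf1 KO (horizontal axis, percent), for the streak genes, 4 pathway lists and all coding genes, with counts beside the bars; 1 library per genotype. The streak genes (3 of 8) and the ligands (3 of 9) lie below the downstream genes (18 of 19) and all coding genes (12491 of 13885).

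Markers of undifferentiated cells differed at the same stage. Of the 9 stem cell markers found, 5 had H3K4me3 in WT week 1 (*Pou5f1*, *Sox2*, *Zfp42*, *Klf4* and *Dppa3*) and 2 in KO (*Sox2* and *Klf4*). The shares over all coding genes were 62.1% and 57.0%. Both genotypes had it at 8 of 9 in mESC and at 7 of 9 at week 2, and at week 3 WT had it at 7 and KO at 8. The counts were thus lowest at week 1 and did not fall steadily with time. *Pou5f1*, which encodes Oct4, stood at the 6.31st percentile in WT week 1. In a mixed aggregate, fewer cells of a type and less mark per cell cannot be told apart, and the part of the cell make-up of the EBs in the week 1 counts was not tested. The week 1 H3K4me3 lists held 18672 domains over 107 Mb in WT and 19041 over 73.4 Mb in KO.

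H3K27me3 was found at 8 of the 10 genes in WT mESC and 5 in KO (34.9% and 7.57% of all genes), at 6 and 7 at week 1 (20.5% and 21.1%), at 5 and 5 at week 2 (29.8% and 24.1%) and at 8 and 5 at week 3 (33.2% and 19.5%). The genes that had it in WT and not in KO were *T*, *Mixl1* and *Gsc* in mESC and *Mixl1*, *Mesp1* and *Mesp2* at week 3. In KO mESC no streak gene had a domain with as many reads per kb of bin as the lowest of the WT list. At week 3 only *Evx1* and *Lhx1* did, with mean counts of 6.74 and 6.62 per 1800 bp bin against a WT minimum of 6.34. With that limit, added after the data were seen, H3K27me3 was left at 0 of the 10 genes in KO mESC and at 2 at week 3 (0.738% and 3.63% of all genes), so most of the KO calls at any gene were removed too. The 3 bivalent calls in KO mESC all rest on H3K27me3 domains with fewer reads per kb than any in the WT list. Within the KO list these domains stood at the 56.5th (*Eomes*), 66.8th (*Evx1*) and 75.3rd percentile (*Lhx1*). Depth per library was not used here, so the counts of the WT and KO lists cannot be compared here as levels of the mark.

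H3K9me3 was found at 2 of the 10 genes in each genotype, *Evx1* and *Lhx1*, against 29.7% of all genes in WT and 40.1% in KO. At *Lhx1* the WT domain was 243 kb long with 2 gene starts and the KO domain 5422 kb long with 85. At *Evx1* the domain was 277.2 kb long with 14 gene starts in WT and 199.8 kb with 2 in KO. The other 8 genes lay 29.6 kb (*Mixl1*, KO) to 1528 kb (*Msgn1*, KO) from the nearest H3K9me3 domain.

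Oct4, Sox2 and Nanog are the core pluripotency factors, and summits of each within 20 kb of the gene bodies were counted in mESC. Oct4 had 8 distinct summits at 6 genes in WT and none at any in KO, in which the whole list held 576 summits against 12898 (30.1% and 1.10% of all genes had one). Sox2 had summits at 4 genes in WT and 9 in KO (18.8% and 57.7% of all genes), *Msgn1* being the KO exception. Nanog had a summit at *Evx1* alone in WT and at *T*, *Evx1*, *Lhx1* and *Msgn1* in KO (7.51% and 27.4%). The lists differed in length in the same direction, with 5190 and 20755 summits for Sox2 and 2390 and 10632 for Nanog, and with the longer list shortened to its tallest summits the counts were 0 for WT Oct4 (2.24% of all genes), 3 for KO Sox2 (17.8%) and 0 for KO Nanog (8.48%).

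The WT Oct4 summits lay 19.9 and 4.33 kb before *T* (59 and 48 reads), 6.76 kb before and 0.481 kb past the start of *Eomes* (22 and 21 reads), 7.82 kb past the start of *Mesp2* (66 reads), 1.33 kb past that of *Evx1* (49 reads), 0.666 kb before *Lhx1* (26 reads) and 10.1 kb past *Msgn1* (29 reads). The list's median was 37 reads, so 4 of the 8 were taller. The far *T* summit lay in an intron of *T2*, that at *Evx1* in an intron of *Evx1* and on an exon of the antisense lincRNA *5730457N03Rik*, that at *Lhx1* in an intron of *1500016L03Rik* and the nearer *Eomes* summit in a coding exon of *Eomes*. The other 4 were intergenic. The tallest, at *Mesp2*, stood at the 85.5th percentile of heights.

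At 6 of the 8 positions a KO Sox2 summit lay within 100 bp, against 46.0% of all WT Oct4 summits, and at 4 a KO Nanog summit (32.4%). No KO Oct4 summit (1.89%) and no WT Sox2 summit (24.2%) lay within that distance of any of them. WT Sox2 summits lay just beyond it at the near *T* site (4.21 kb before the start, 18 reads) and at *Evx1* (1.46 kb past the start, 15 reads). The KO Sox2 summit at the near *T* site was 53 bp from that WT Sox2 summit, so Sox2 was not absent there in WT. The KO Sox2 summits at these positions were 36 reads tall at the far *T* site and 24 at the near one, 30 at *Mesp2*, 27 at *Evx1* and 19 at both *Eomes* and *Lhx1*, and the 4 tallest KO Sox2 summits at streak genes were among these. The 10 KO Sox2 summits elsewhere near the genes had 10 to 19 reads. The reference sequence of 50 bases on either side of the WT Oct4 summits that had a KO Sox2 summit within 100 bp follows on the plus strand of mm9, with CpG in capitals, for the 5 that touch no UTR. They are shown so that the occupied positions can be compared: chr17:8607372-8607472 and chr17:8622913-8623013 for *T*, chr7:86963387-86963487 for *Mesp2*, chr6:52264771-52264871 for *Evx1* and chr11:84339539-84339639 for *Lhx1*.
T far: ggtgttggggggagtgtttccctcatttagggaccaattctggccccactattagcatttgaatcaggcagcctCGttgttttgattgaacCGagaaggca
T near: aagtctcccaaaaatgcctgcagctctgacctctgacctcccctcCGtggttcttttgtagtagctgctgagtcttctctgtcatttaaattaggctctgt
Mesp2: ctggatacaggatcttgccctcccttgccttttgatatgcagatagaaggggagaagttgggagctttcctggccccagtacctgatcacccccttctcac
Evx1: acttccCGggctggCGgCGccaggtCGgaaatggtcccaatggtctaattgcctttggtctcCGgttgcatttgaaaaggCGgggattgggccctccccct
Lhx1: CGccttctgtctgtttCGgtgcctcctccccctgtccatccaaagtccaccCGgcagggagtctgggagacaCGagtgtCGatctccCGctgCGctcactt
These held 2, 1, 0, 6 and 7 CpG in that order. Of the 12697 WT Oct4 windows of this length read from the assembly, 69.8% held a CpG, 8.82% held the octamer ATGCAAAT and 4.86% the short composite TTGTNATGC. None of the 8 windows at the streak genes held either, which says only that these letters are not in the window.

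**Figure D5:**
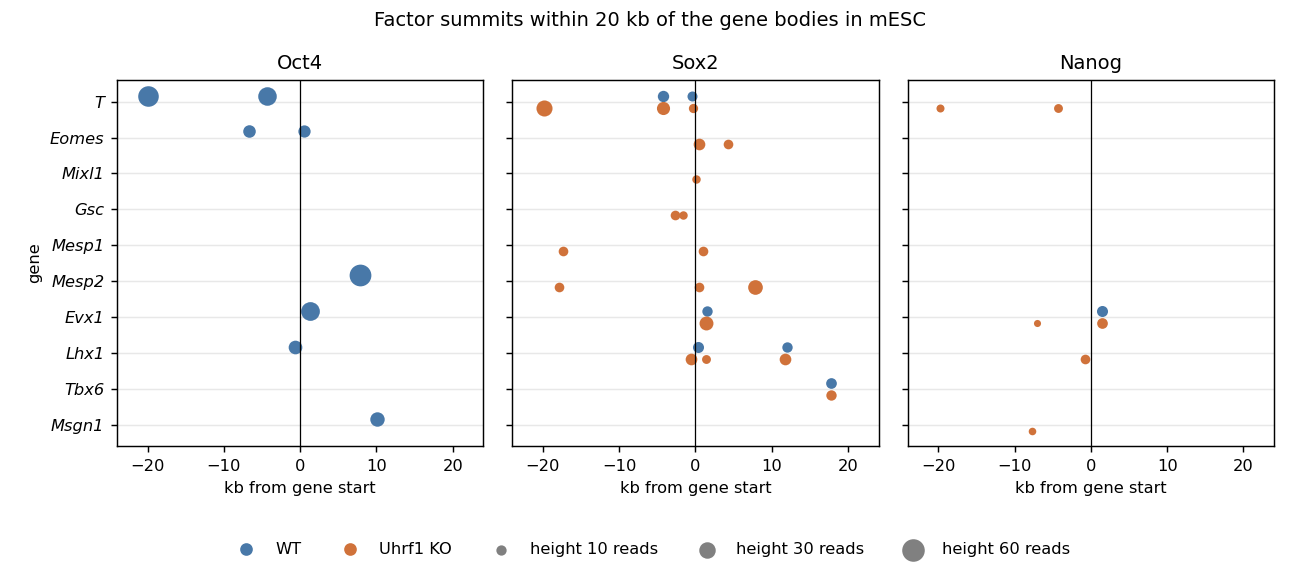
Oct4, Sox2 and Nanog summits in mESC within 20 kb of each gene body, by distance from the gene start along the gene (kb); point area grows with height in reads. Oct4 points are WT alone, at 6 genes, and Sox2 points are mostly KO, at 9 genes; *Mesp1* and *Mesp2* share a pair of KO Sox2 summits.

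Of the 8 Oct4 sites, 6 lay in a WT H3K4me3 domain and 7 in a WT H3K27me3 domain, against 38.0% and 30.9% of all WT Oct4 summits, and 5 lay in a KO H3K4me3 domain (29.8%). The sites were picked by nearness to these genes. All but *Msgn1* had a WT mESC H3K27me3 domain at the start, from 36 kb (*Mesp2*) to 518.4 kb (*Evx1*) long. The counts are therefore not independent of the marks at the starts. The site at *Mesp2* was inside a WT H3K4me3 domain and outside any KO one. That at *Msgn1* was in neither mark in either genotype.

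No Uhrf1 window of 10 kb touched any of the 10 genes, against 9.84% of all coding genes. The nearest window lay 15.2 kb from *Msgn1*, 207.3 kb from *T*, 259.4 kb from *Gsc* and 447.3 kb from *Eomes*. The other 6 genes lay 593.5 kb (*Evx1*) to 1765 kb (*Tbx6*) from one. The median was 747.6 kb over the 10 genes and 172.1 kb over all coding genes. The window near *Msgn1*, the only one within 50 kb, was chr12:11190001-11200000.

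The pathway genes whose states in the 18 histone lists differed least from those of most streak genes were *Nodal*, which differed in 4 lists, and *Bmp4*, *Cdx1*, *Fgf8*, *Lefty1* and *Snai1*, which differed in 5 each. Of all coding genes, 1227 (5.49%) differed in 5 lists or fewer. The streak genes themselves differed from their own majority in 0 (*Mixl1*) to 9 lists (*Lhx1* and *Msgn1*). A list with the mark at 5 of the 10 genes has no majority and was read as unmarked. This was so for H3K4me3 in WT week 2 and for H3K27me3 in KO mESC, both week 2 lists and KO week 3. *Lhx1* had the mark in all of these lists and *Mixl1* in none, so these counts and the likeness of the pathway genes depend on that choice. *Nodal* was active in both genotypes in mESC, bivalent in WT and repressive in KO at week 1, active in both at week 2, and bivalent in WT and active in KO at week 3. *Fgf8*, a ligand of the streak, matched *Gsc* in mESC and week 1, bivalent in WT and then active and repressive in KO. *Bmp4*, the ligand that induces the posterior streak, was the only one of the 53 whose class differed between WT and KO at all 4 stages, bivalent in WT and active in KO each time. The 29 pathway genes bivalent in WT mESC were bivalent at 6 and active at 18 in KO, against 14.6% and 60.5% of all genes bivalent in WT mESC.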

How the data were processed

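The series holds 33 samples, 17 WT and 16 Uhrf1 KO; the 8 inputs were not used here. The authors mapped reads to mm9 with Bowtie2 2.1.0, called histone domains with RSEG against input and factor summits with MACS, and listed 10 kb Uhrf1 windows enriched over input. For histone domains the deposited signal is the mean read count per bin and the deposited score grows with domain length; for summits the deposited signal is the height in reads. The Uhrf1 list has no value that was used.

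Groups follow GEO's labels. Genes and their starts came from GENCODE vM1 (protein-coding, mitochondrial genome left out), and *Fgfr1*, annotated at 2 overlapping entries, was read at the longer. Overlap was at least 1 bp, in Python 3.11 with numpy 2.4.6, and plots were made with matplotlib 3.10.9. Overlap calls were tested on simulated data. The authors classed promoters by reads over input, whereas deposited domains were used here. Depth per library was not used here. Members, lists and motifs were chosen with earlier results of these data known, and support nothing independently. Named were all 10 members, the pathway genes most like their majority state (up to 5 by the rule, with ties by name; *Snai1*, tied with the last 4, was named as well), and pathway genes differing at all 4 stages. Alternatives were other windows and distances, any transcript start, domains above the median score, taller summits and lists of equal number.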

Additional observations from a re-analysis of the deposited data

Results flagged for a closer look

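The number of streak genes with H3K4me3 changed from WT to KO in opposite directions at different stages: by -1 in mESC, -5 at week 1 and -1 at week 2, and by 2 at week 3. For H3K27me3 the change was -3 in mESC, 1 at week 1 and -3 at week 3. Each value compares 1 library with 1 library, and the difference between stages was not tested. The genes behind the week 3 change of 2 were *Gsc* and *Mesp1*, each with a KO H3K4me3 domain of 1.6 kb, and the gene behind the week 1 change of 1 was *Mesp2*, with a KO H3K27me3 domain of 12.6 kb.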

How the results depend on the processing

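Of 135 alternatives to 33 counts of streak genes, 114 stayed within 1.5 times the reported count, 2 were higher and 19 lower beyond that. The week 1 H3K4me3 counts moved beyond it under none of the alternatives run. With only domains above the median score, H3K4me3 was at 5 genes in KO week 3, H3K27me3 at 5 in WT mESC and 3 in WT week 2, and the bivalent genes were 4 in WT mESC, 1 in KO week 1, 2 in WT week 2 and 3 in WT week 3. With KO domains of mean count no lower than the lowest of the WT list, H3K27me3 was at 0 genes in KO mESC and 2 in KO week 3, and the bivalent genes were 0 and 2. With summits above the median height, Oct4 was at 3 genes in WT, Sox2 at 0 in WT and 5 in KO, and Nanog at 0 in WT and 2 in KO. With lists of equal number, Oct4 was at 0 genes in WT, Sox2 at 3 in KO and Nanog at 0 in KO. Within 50 kb, Nanog was at 2 genes in WT and Uhrf1 at 1. Fewer domains or summits, or a wider distance, make these moves by construction. The limit on KO mean counts, the loss of 1-bin domains and the assignment of summits to the nearest gene alone were chosen after seeing the data. No paired analysis was possible because each group holds 1 library. Depth could not be assessed from the lists.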

Other observations

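The factors were also counted at the 53 pathway genes. Oct4 had a summit within 20 kb at 30 of them in WT mESC and 2 in KO (30.1% and 1.10% of all coding genes). Sox2 had one at 27 and 46 (18.8% and 57.7%), and Nanog at 19 and 28 (7.51% and 27.4%). As at the 10 streak genes, the count was lower in KO for Oct4 and higher for Sox2 and Nanog, in the order of the lengths of the lists.

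At week 3 the ligands had H3K27me3 at 11 of 13 genes in WT and 5 in KO, with H3K4me3 at 11 in each. The downstream genes had H3K27me3 at 19 of 20 in WT and 17 in KO. Over all coding genes H3K27me3 was at 33.2% in WT and 19.5% in KO, so the lower KO count was not particular to the ligands. The signal transducers had it at 1 of 11 in each genotype at that stage.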
